A study of Rattus norvegicus with 14 samples.

Results

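Neonatal rat ventricular myocytes stimulated with phenylephrine (PE) for 6 h were compared with unstimulated vehicle cells. The comparison used 5 of the 14 arrays of the series, all titled as 1 or the other of these groups, and covered 13184 genes with the brightest probe set taken for each gene symbol. The PE group (n = 2) received the vehicle DMSO and 100 µM PE for 6 h. The unstimulated group (n = 3) received DMSO without PE and is labelled 90 min. All cells were isolated from hearts of 2-day-old Sprague-Dawley pups, had been pre-plated to deplete non-myocytes, and were kept in serum-free medium before stimulation. The 9 other arrays held cells given DMSO and PE for 48 h (n = 3), or the BET bromodomain inhibitor JQ1 with PE for 6 h (n = 3) or 48 h (n = 3), and served here to estimate the spread between arrays. No group without PE at 6 h was used, so PE and time after the start of treatment cannot be told apart. Whether pups were pooled, and whether each array stands for a culture of its own, is not stated. The p-values therefore rest on array-to-array spread that could be technical.

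Phenylephrine is an agonist of alpha1-adrenergic receptors. In cardiac myocytes these receptors couple through Gq to phospholipase C, which raises calcium and activates protein kinase C, and from there to the ERK kinases, calcineurin and the actin-responsive serum response factor (SRF). The cultured neonatal rat myocyte is a standard model in which this pathway induces immediate early genes within hours and growth of the cell with re-expression of fetal genes over days.

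Changes are given as the log2 difference of PE over unstimulated cells ± SE of a limma fit across all 14 arrays, with Benjamini-Hochberg adjusted p-values over 13184 genes and a threshold of 0.05. At 6 h of PE, 2416 genes rose (18.3% of all genes tested) and 2492 fell (18.9%). Most of these changes were small: 84.4% of the called genes changed by less than 1.5-fold. The PE arrays did not overlap the unstimulated arrays for 7109 genes (53.9%). At least 2-fold changes were seen for 133 raised genes (1.01%) and 70 lowered genes (0.531%). The median change over all genes was 0.01. Of the genes raised at least 2-fold, 27 had a mean below log2 6.23 without PE, the 30th percentile of genes and here called the dim limit. Of those lowered at least 2-fold, 13 lay below it with PE. Fold sizes that start or end at a dim level are uncertain. Counts of members of the gene lists below are to be read beside the 18.3% of all genes that rose and the 18.9% that fell. The lists were chosen with earlier results of these data known, so their counts are descriptions.

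**Figure D1:**
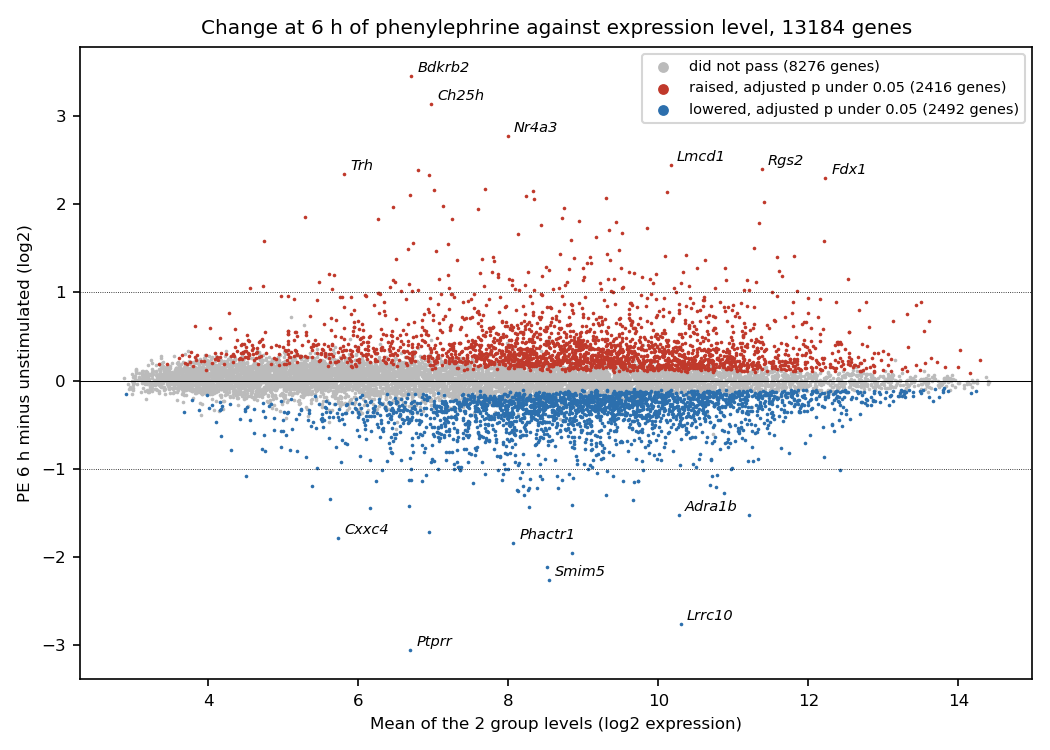
Each point is a gene, with the mean of its PE 6 h and unstimulated levels (log2 expression) on the x axis and the PE 6 h minus unstimulated difference (log2) on the y axis, and dotted lines at 2-fold. The changes fan out on both sides of 0, with Bdkrb2 at 3.45 as the highest point and Ptprr at -3.06 as the lowest.

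The bradykinin B2 receptor gene Bdkrb2, another Gq-coupled receptor, had the largest rise among the probe sets used. It read 8.30 and 8.57 on the PE arrays, against 4.99, 5.17 and 4.78 on the unstimulated arrays, a change of 3.45 ± 0.13 (adjusted p = 1.73e-09). Both PE arrays stood more than 3 log2 units above every unstimulated array, although the unstimulated level was dim. A second probe set of the gene gave 2.04, and the dimmest gave 0.16 without passing (adjusted p = 0.191). The mean of the 3 probe sets was 1.88, so the rank depends on the choice of probe set. Ch25h, which makes the oxysterol 25-hydroxycholesterol, read 8.31 and 8.75 with PE, against 5.42, 5.32 and 5.47 without (3.13 ± 0.11, adjusted p = 1.55e-09). It was dim without PE, and the gap between its PE arrays was small beside the change.

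The orphan nuclear receptor gene Nr4a3 read 9.34 and 9.41 in PE cells, against 6.73, 6.47 and 6.63 in unstimulated cells (2.76 ± 0.089). Its other probe sets gave 3.58, which is above the change of Bdkrb2, and 0.51 at a dim level. Lmcd1, a LIM domain protein known from mice to promote calcineurin-dependent cardiac growth, read 11.56 and 11.21 with PE, against 8.95, 9.01 and 8.88 without (2.44 ± 0.10). Rgs2, a GTPase-activating protein that switches off Gq, read 12.59 and 12.57 with PE, against 10.17, 10.22 and 10.16 without, and was 5.25-fold higher. None of these 3 genes was dim in either group. The scavenger receptor gene Olr1 (2.38 ± 0.13), the hormone precursor Trh (2.34 ± 0.11) and the EGF receptor ligand Areg (2.33 ± 0.13) rose by more than 2 log2 units from dim levels.

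Among the abundant transcripts, Fdx1, the ferredoxin that passes electrons to mitochondrial cytochrome P450 enzymes, read 13.41 and 13.34 in PE cells, against 11.03, 11.08 and 11.13 in unstimulated cells (4.9-fold higher, adjusted p = 1.69e-10). The deubiquitinase gene Otud1 read 12.45 and 12.38, against 10.38, 10.42 and 10.37 (4.07-fold higher). The arrays of each group lay close together for both genes, and the changes were many times that spread. Sik1, a kinase induced by the transcription factor CREB that restrains CREB coactivators, read 9.23 and 9.32 with PE, against 7.13, 7.18 and 7.25 without (2.08 ± 0.073). Averaging its probe sets gave a smaller rise of 1.24. Gfpt2, which encodes the first enzyme of the hexosamine pathway, was 4.18-fold higher. The chemokine gene Ccl27 (2.15 ± 0.10), the cytokine subunit gene Il12a (2.11 ± 0.14), the scaffold gene Iqgap2 (2.16 ± 0.094), the hydrolase gene Abhd2 (2.17 ± 0.094) and Hsf2bp (1.97 ± 0.15) were also among the 20 largest rises. Adjusted p was at most 6.83e-07 for those 20, of which 9 were dim in unstimulated cells.

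RefSeq promoter windows (GRCr8, 250 bases before to 50 after the annotated start) were read for motifs of the factors that act downstream of calcium and ERK signalling. They are shown here, with motifs in capitals, for the 4 of the 20 most raised genes whose window holds the cyclic AMP response element TGACGTCA. CREB and related factors bind this site. Not every one of the 20 had a window, and Nr4a3 and Nr4a1 had none. As examples, 2 of the 9 raised genes that hold the AP-1 motif TGACTCA on either strand, the site of FOS and JUN dimers, are shown too.
Ch25h, chr1:241429317-241429616, minus strand: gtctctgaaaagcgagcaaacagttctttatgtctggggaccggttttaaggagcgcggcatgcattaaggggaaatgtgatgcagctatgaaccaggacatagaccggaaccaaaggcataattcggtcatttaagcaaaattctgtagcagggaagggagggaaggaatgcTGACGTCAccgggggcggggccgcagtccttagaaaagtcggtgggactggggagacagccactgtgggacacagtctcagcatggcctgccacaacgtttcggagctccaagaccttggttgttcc
Lmcd1, chr4:146948743-146949042, plus strand: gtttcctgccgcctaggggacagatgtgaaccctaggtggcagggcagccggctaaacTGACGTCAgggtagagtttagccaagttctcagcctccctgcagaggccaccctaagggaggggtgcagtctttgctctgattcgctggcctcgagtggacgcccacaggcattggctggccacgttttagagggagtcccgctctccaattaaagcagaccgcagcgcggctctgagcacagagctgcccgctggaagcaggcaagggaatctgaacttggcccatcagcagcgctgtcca
Areg, chr14:17265592-17265891, minus strand: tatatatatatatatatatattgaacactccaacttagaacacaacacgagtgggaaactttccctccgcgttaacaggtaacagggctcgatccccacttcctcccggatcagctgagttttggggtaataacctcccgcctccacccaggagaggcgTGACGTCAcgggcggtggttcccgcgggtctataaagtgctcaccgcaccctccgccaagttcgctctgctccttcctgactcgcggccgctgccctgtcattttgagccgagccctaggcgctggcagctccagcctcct
Il6, chr4:5894526-5894825, minus strand: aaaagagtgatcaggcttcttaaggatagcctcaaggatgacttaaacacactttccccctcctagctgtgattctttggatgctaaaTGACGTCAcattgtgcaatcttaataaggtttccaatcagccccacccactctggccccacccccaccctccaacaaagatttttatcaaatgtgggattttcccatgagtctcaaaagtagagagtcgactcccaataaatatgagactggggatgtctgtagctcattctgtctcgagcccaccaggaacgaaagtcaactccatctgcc
Olr1, chr4:164634498-164634797, minus strand: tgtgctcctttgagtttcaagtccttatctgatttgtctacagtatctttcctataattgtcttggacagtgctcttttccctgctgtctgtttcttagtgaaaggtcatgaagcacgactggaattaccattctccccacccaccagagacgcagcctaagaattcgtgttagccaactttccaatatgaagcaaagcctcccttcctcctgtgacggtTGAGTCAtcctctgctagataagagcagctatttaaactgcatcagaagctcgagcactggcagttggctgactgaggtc
Plaur, chr1:89181113-89181412, plus strand: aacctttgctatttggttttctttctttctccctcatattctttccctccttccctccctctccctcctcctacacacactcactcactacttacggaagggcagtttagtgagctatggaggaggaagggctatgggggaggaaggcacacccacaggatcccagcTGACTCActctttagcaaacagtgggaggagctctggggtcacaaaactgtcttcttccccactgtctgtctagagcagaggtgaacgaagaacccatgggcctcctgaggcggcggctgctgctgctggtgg
The first base of the capitals lies 77 bases before the start in Ch25h, 192 in Lmcd1, 91 in Areg, 162 in Il6, 30 in Olr1 and 83 in Plaur. A window was found for 97 of the 133 genes raised at least 2-fold, 59 of the 70 lowered, and 10893 of the 13184 tested. TGACGTCA, read on both strands, was in 6 of the 97 raised windows (6.19%) and 1 of the 59 lowered windows (1.69%), against 2.92% of all tested genes and 1.91% of all promoters in the table. TGACTCA was in 9 of the raised windows (9.28%) and 1 of the lowered (1.69%), against 3.8% of tested genes and 4.53% of all promoters. The E-box CACGTG was in 5.15% of raised and 11.9% of lowered windows, against 8.99% of tested genes and 6.65% of all promoters. The NFAT core GGAAAA was in 21.6% and 33.9%, against 20.5% and 24.3%. The CArG box bound by SRF was in 1 raised window (1.03%), that of Egr2 (named for this match, after its values were seen), and in 0 of the lowered windows, against 1.32% of tested genes and 1.64% of all promoters. None of the TGACGTCA matches in the raised windows overlapped another motif searched. These are descriptions of letters in short windows, with no test.

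The largest fall among the probe sets used was that of Ptprr, a tyrosine phosphatase that binds and inactivates MAP kinases. It read 5.19 and 5.14 in PE cells, against 8.29, 8.26 and 8.11 in unstimulated cells (-3.06 ± 0.079, adjusted p = 1.69e-10), and so reached a dim level. Lrrc10, a leucine-rich repeat protein found in cardiac myocytes, read 8.87 and 8.98 with PE, against 11.64, 11.67 and 11.72 without (6.75-fold lower). The PE arrays of both genes lay more than 2 log2 units below every unstimulated array. Pik3ip1, an inhibitor of phosphoinositide 3-kinase, read 7.35 and 7.56, against 9.54, 9.68 and 9.48 (-2.11 ± 0.078), and a dimmer probe set gave -0.067 without passing. Smim5 (-2.26 ± 0.24) stood between Lrrc10 and Pik3ip1 in size. The HMG-box factor gene Tox (-1.96 ± 0.12) and Phactr1, a regulator of actin and protein phosphatase 1 (-1.84 ± 0.12), came after Pik3ip1.

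Adra1b, which encodes the alpha1B-adrenergic receptor and thus a target of the agonist itself, was among the 20 largest falls. It read 9.45 and 9.57 in PE cells, against 11.02, 10.999 and 11.08 in unstimulated cells, and was 2.87-fold lower (adjusted p = 2.36e-09). The homeobox gene Irx3, which patterns ventricular conduction, read 10.38 and 10.52, against 12.01, 12.05 and 11.84 (-1.52 ± 0.066). Ppargc1a, the coactivator PGC-1alpha that drives mitochondrial gene expression, read 7.62 and 7.51, against 8.80, 9.10 and 9.09 (-1.43 ± 0.27, adjusted p = 0.00111), with a large SE that includes the spread of the other groups. Kcnj11, the pore subunit of the ATP-sensitive potassium channel, read 8.64 and 8.68, against 9.93, 9.97 and 9.96 (-1.29 ± 0.062). All 4 genes stayed above the dim limit with PE. That their arrays do not overlap was a condition for naming the 20 largest falls. The BMP co-receptor gene Hjv (-1.41 ± 0.085), the AMP deaminase gene Ampd3 (-1.36 ± 0.096), Sphkap, an anchor of protein kinase A (-1.28 ± 0.064), Rimbp2 (-1.30 ± 0.085) and the metalloprotease gene Mmp15 (-1.25 ± 0.087) also fell without reaching the dim limit. Cxxc4 (-1.78 ± 0.19), Lrrc14b (-1.71 ± 0.14), Cep70 (-1.44 ± 0.12), Ttc39a (-1.42 ± 0.17) and Asb14 (-1.35 ± 0.23) were dim with PE. Adjusted p was at most 0.00111 for the 20 falls.

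**Figure D2:**
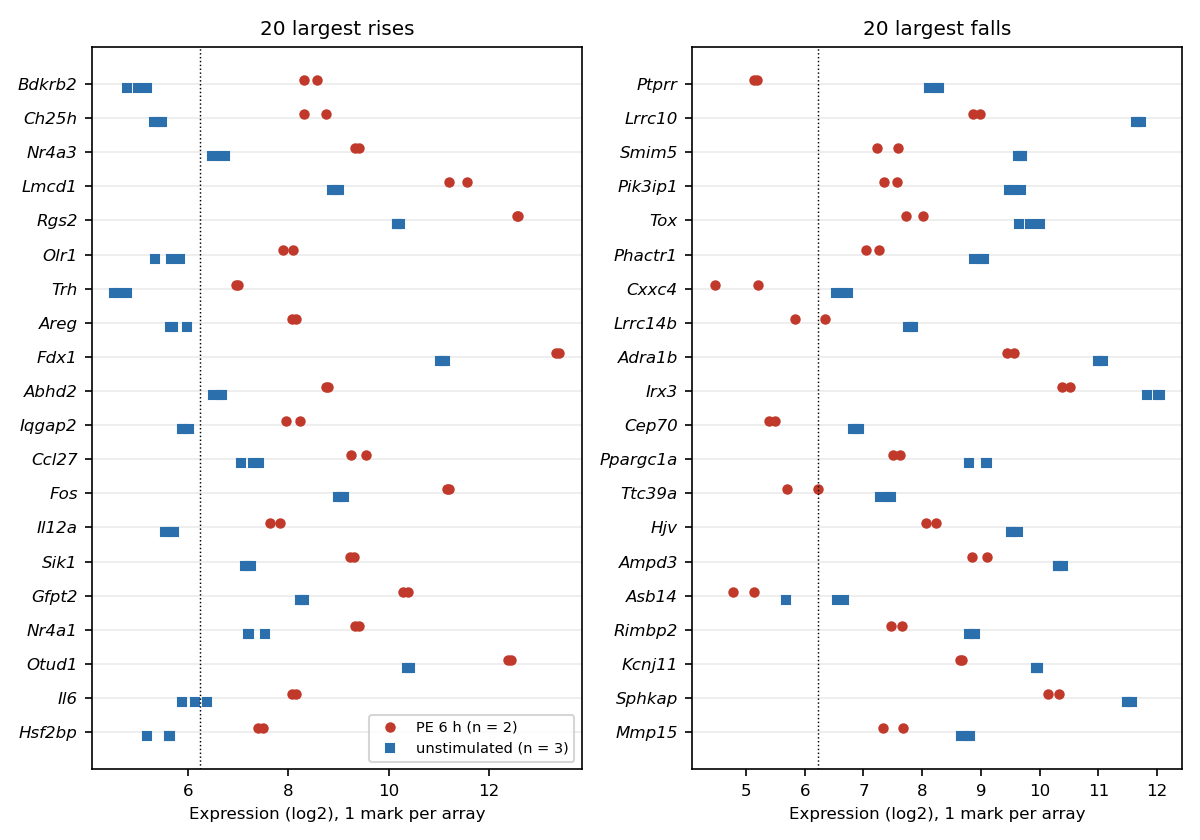
Expression (log2) of the 20 genes with the largest rise (left) and the 20 with the largest fall (right) among called genes whose arrays do not overlap, with a mark per array for PE 6 h (circles, n = 2) and unstimulated cells (squares, n = 3) and a dotted line at the dim limit of 6.23. Lrrc10 reads 8.87 and 8.98 with PE, against 11.64, 11.67 and 11.72 without, and Asb14 has the widest spread of unstimulated arrays (6.55, 5.68 and 6.68).

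Of 32 measured genes of alpha1-adrenergic and Gq signalling, 6 rose and 9 fell (median 0.033). These are 18.8% and 28.1% of the list, beside 18.3% and 18.9% of all genes, so the share raised was that of the background. Beside Adra1b, the alpha1D receptor gene Adra1d read 7.10 and 7.20 with PE, against 7.75, 7.77 and 7.84 without (-0.64 ± 0.11), while Adra1a was dim in both groups (-0.027 ± 0.13, adjusted p = 0.9). The 2 alpha1 receptor genes above the dim limit were thus both lower in PE cells. Prkce, the epsilon isoform of protein kinase C, read 6.90 and 6.80, against 7.54, 7.63 and 7.81 (-0.81 ± 0.087). With Rgs2, the receptor kinase gene Grk5 rose (0.59 ± 0.045). Of the diacylglycerol kinase genes, whose products remove the second messenger diacylglycerol, Dgka rose (0.44 ± 0.046) and Dgkz fell (-0.34 ± 0.059). The phospholipase gene Plcb4 (-0.38 ± 0.049) and the inositol trisphosphate receptor gene Itpr1 (-0.41 ± 0.056) fell.

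Of 27 other G protein-coupled receptor genes, 7 rose and 3 fell. Below Bdkrb2, the sphingosine 1-phosphate receptor genes S1pr3 (0.68 ± 0.07), S1pr1 (0.43 ± 0.053) and S1pr2 (0.30 ± 0.07) rose together with the adenosine receptor genes Adora2b (0.56 ± 0.12) and Adora2a (0.51 ± 0.087), both dim without PE. The 3 that fell were the prostaglandin F receptor gene Ptgfr (-1.05 ± 0.061), the lysophosphatidic acid receptor gene Lpar1 (-0.87 ± 0.07) and the angiotensin receptor gene Agtr1a (-0.83 ± 0.064). Agtr1a read 8.67 and 8.88 in PE cells, against 9.53, 9.60 and 9.69 in unstimulated cells.

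Of 28 immediate early transcription factor genes, 23 rose and 1 fell (median 0.48, against 0.01 for all genes). The AP-1 subunit gene Fos read 11.20 and 11.17 with PE, against 8.98, 9.05 and 9.11 without (4.41-fold higher). Its relative Fosl1 (1.47 ± 0.074) rose as well, and the JUN family gene Junb rose less (0.30 ± 0.059). Among the other NR4A receptor genes, Nr4a1 read 9.41 and 9.33, against 7.19, 7.22 and 7.54 (2.05 ± 0.12), and Nr4a2 read 6.74 and 6.61, against 6.38, 6.16 and 6.13 (0.45 ± 0.078, dim without PE). The zinc finger factor gene Egr1 (0.35 ± 0.056), the small MAF gene Mafk (0.98 ± 0.05), Ier2 (1.01 ± 0.058) and the growth regulator gene Myc (0.63 ± 0.087) also rose, and Klf10 was the 1 member that fell (-0.17 ± 0.061).

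Of 17 genes of MAP kinase feedback, 9 rose and 2 fell. Dusp1, a nuclear phosphatase of MAP kinases, read 11.06 and 11.03 with PE, against 10.25, 10.31 and 10.35 without (0.74 ± 0.053), and Dusp6, which acts on ERK, read 9.46 and 9.30, against 8.75, 8.84 and 8.81 (0.58 ± 0.067). Dusp5 (0.70 ± 0.061), Dusp2 (1.01 ± 0.064, dim without PE), the phosphatase gene Ptpre (0.73 ± 0.077, dim in both groups) and Errfi1, an inhibitor of the EGF receptor (0.85 ± 0.066), rose too. The members that fell were Ptprr and Rasa1, a Ras GTPase-activating protein (-0.50 ± 0.045). The MAP kinase feedback list thus held the largest fall of the comparison beside moderate rises.

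In the list of cyclic AMP and phosphodiesterase genes 8 of 25 rose and 4 fell. Crem, a CREB family factor, read 10.02 and 10.07 in PE cells, against 8.60, 8.76 and 8.66 in unstimulated cells (1.37 ± 0.054). Its other probe sets, all with a mean level above the dim limit, rose by 0.64 to 1.92. The phosphodiesterase genes Pde10a (1.23 ± 0.07), Pde4b (1.05 ± 0.063), Pde2a (0.55 ± 0.055) and Pde8a (0.67 ± 0.048) rose, and a dimmer probe set of Pde8a passed in the opposite direction (-0.47, adjusted p = 0.0244). Prkar2b, a regulatory subunit of protein kinase A, fell (-0.40 ± 0.048). Of 25 calcineurin, CaMKII, NFAT and MEF2 genes, 5 rose and 10 fell, but only 4 fell without replicate 1 of the PE arrays and 5 when the 5 compared arrays were fitted alone. Rcan1, a calcineurin regulator whose transcription calcineurin itself induces, read 12.52 and 12.41, against 11.57, 11.49 and 11.51 (0.94 ± 0.057). Mef2d (0.72 ± 0.067) rose, though a second probe set gave 0.088 without passing, while Mef2a (-0.51 ± 0.039) and Rcan2 (-0.40 ± 0.039) fell. A second Rcan2 probe set, at a mean level of 9.84, gave -0.11 without passing.

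**Figure D3:**
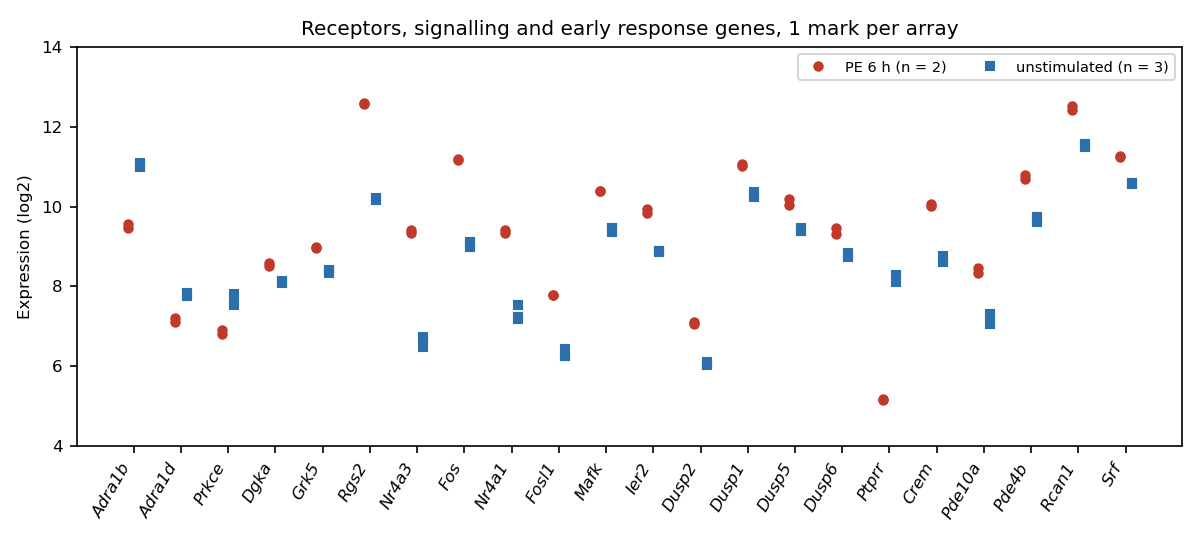
Expression (log2, y axis) of receptor, signalling and early response genes, with a mark per array for PE 6 h (circles, n = 2) and unstimulated cells (squares, n = 3). Adra1b, Adra1d, Prkce and Ptprr lie lower with PE, and the other genes drawn lie higher, with Rgs2 at 12.59 and 12.57 against 10.17, 10.22 and 10.16.

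Actin cytoskeleton genes and SRF targets rose: 22 of 31 rose and 1 fell (median 0.29). Srf itself read 11.28 and 11.23 with PE, against 10.60, 10.57 and 10.58 without (0.67 ± 0.043). Flnc, the muscle filamin that crosslinks actin, read 12.28 and 12.20, against 11.13, 11.04 and 11 (1.18 ± 0.05), and the Z-disc gene Xirp1 read 10.68 and 10.46, against 9.42, 9.29 and 9.37 (1.21 ± 0.07). Both were more than 2-fold higher. Fhl1 (0.89 ± 0.038), the smooth muscle actin gene Acta2 (0.85 ± 0.061) and the skeletal actin gene Acta1 (0.56 ± 0.033) rose. A second Fhl1 probe set, at a mean level of 11.38, rose by 2.09, while the one used read up to 13.99, near the top of the scale. Tagln, which encodes transgelin, fell (-0.18 ± 0.049). Smooth muscle and pericyte markers, of which this list holds Acta2, Cnn1, Lmod1 and Tagln, moved with it: 8 of 14 rose (5 without replicate 2 of the PE arrays) and 4 fell. Their summed level (log2 of the sum of linear levels) was 14.55 to 14.58 on the PE arrays, against 14.29 to 14.36 on the unstimulated arrays, and their part in the result was not tested. The sum includes Des, which is also in the sarcomere and Z-disc list. Des read 12.82 and 12.80 with PE, against 12.26, 12.25 and 12.29 without, so the sum does not stand for smooth muscle and pericytes alone. Of 13 tubulin genes, 7 rose and 0 fell. Tubb6 read 11.79 and 11.72, against 10.65, 10.59 and 10.61 (1.14 ± 0.047), ahead of Tuba4a (0.41 ± 0.044), Tubb4b (0.39 ± 0.048) and Tubb2a (0.37 ± 0.04).

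Heat shock genes rose as well, 14 of 23 against 1 that fell (median 0.18). The inducible chaperone gene Hspa1a read 9.46 and 9.36, against 7.89, 7.95 and 8.08 (1.44 ± 0.07). The small heat shock genes Hspb6 (0.89 ± 0.046), Hspb7 (0.76 ± 0.054) and Hspb8 (0.72 ± 0.041), abundant in muscle, rose by similar amounts, and so did Hsph1 (0.83 ± 0.047).

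Of 20 hypertrophy markers, 13 rose and 0 fell (median 0.44). The B-type natriuretic peptide gene Nppb read 14 and 13.89 in PE cells, against 13.27, 13.30 and 13.26 in unstimulated cells (0.67 ± 0.046), and the atrial peptide gene Nppa read 14.22 and 14.16, against 13.83, 13.90 and 13.82 (0.34 ± 0.037). The slow myosin gene Myh7 was 0.067 ± 0.045 (adjusted p = 0.284) and did not pass on the probe set used, which read 13.85 to 13.98 on all 5 arrays, near the top of the scale. A second Myh7 probe set, at a mean level of 8.35, rose by 0.43 (adjusted p = 0.0461). The Nppb and Nppa probe sets also read near the top of the scale. The growth factor genes Hbegf (0.98 ± 0.049) and Tgfb2 (0.93 ± 0.053) and Csrp3, a Z-disc stretch sensor (0.85 ± 0.05), rose. Ccn2 rose only slightly (0.16 ± 0.043), and by 0.141 without replicate 1 of the PE arrays. It read 13.86 to 14.09 on the 5 arrays, near the top of the scale. In the fit of those 5 arrays alone it did not pass (adjusted p = 0.0916). Of 20 genes listed as lowered in cardiac hypertrophy, 14 fell and 2 rose (median -0.28). This list and that of hypertrophy markers were chosen with earlier results of these data known, so their counts are descriptions. Beside Lrrc10, Ppargc1a and Kcnj11, Abcc9 (-0.40 ± 0.07), Cpt1b (-0.76 ± 0.082) and Kcnd3 (-0.62 ± 0.09) fell. The fast myosin gene Myh6 (-0.11 ± 0.036) and the calcium pump gene Atp2a2 (-0.14 ± 0.037) changed little on the probe sets used. These read 14.16 to 14.31 and 14.07 to 14.25 on the 5 arrays, near the top of the scale. Without replicate 1 of the PE arrays the changes were -0.099 and -0.115. A second Myh6 probe set, at a mean level of 9.53, gave -0.078 without passing. Of the other Atp2a2 probe sets, that at 10.69 gave -0.22 (adjusted p = 0.0396). The rest did not pass, that at 12.38 giving 0.077. Over the 12 alternatives Myh6 lost its call under 6 and Atp2a2 under 3. Kcnd2 (0.78 ± 0.12) and the glucose transporter gene Slc2a4 (0.55 ± 0.061) rose against the list.

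Of 25 sarcomere and Z-disc genes 6 rose (24.0%) and 5 fell (20%), shares close to those of all genes, and the number that fell ranged from 2 to 9 over the alternatives tried. The titin cap gene Tcap read 11.43 and 11.52 with PE, against 10.32, 10.37 and 10.33 without (1.14 ± 0.04), and the M-band gene Myom2 read 10.44 and 10.53, against 11.52, 11.41 and 11.51 (-0.99 ± 0.094). Desmin, Des, rose (0.55 ± 0.039) and Mybpc3, the myosin-binding protein C, fell (-0.28 ± 0.04).

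Of 35 ribosome biogenesis genes, 29 rose and 0 fell (median 0.36). The small subunit processing factor gene Rrp12 read 9.53 and 9.61 in PE cells, against 8.22, 8.19 and 8.13 in unstimulated cells (1.39 ± 0.072). The RNA polymerase I gene Polr1e (0.65 ± 0.047), the nucleolar factor genes Nolc1 (0.60 ± 0.046), Nop2 (0.50 ± 0.046) and Mybbp1a (0.53 ± 0.046) and the small nucleolar ribonucleoprotein gene Gar1 (0.47 ± 0.04) rose. Of these, Rrp12 alone changed by more than 2-fold. Of 27 translation factor and tRNA synthetase genes 14 rose and 0 fell, with Eif6 (0.59 ± 0.045), Eef1e1 (0.46 ± 0.044) and the cap-binding factor Eif4e (0.34 ± 0.039) among them. In polyamine and nucleotide synthesis 10 of 19 rose and 2 fell. Srm, spermidine synthase, rose by 0.66 ± 0.048 and Odc1, ornithine decarboxylase, by 0.36 ± 0.043. Of 18 amino acid transporter genes 7 rose and 1 fell. Those that rose include the cationic amino acid carrier Slc7a1 (0.80 ± 0.052), the glutamine carrier Slc1a5 (0.65 ± 0.06) and Slc3a2 (0.37 ± 0.052).

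**Figure D4:**
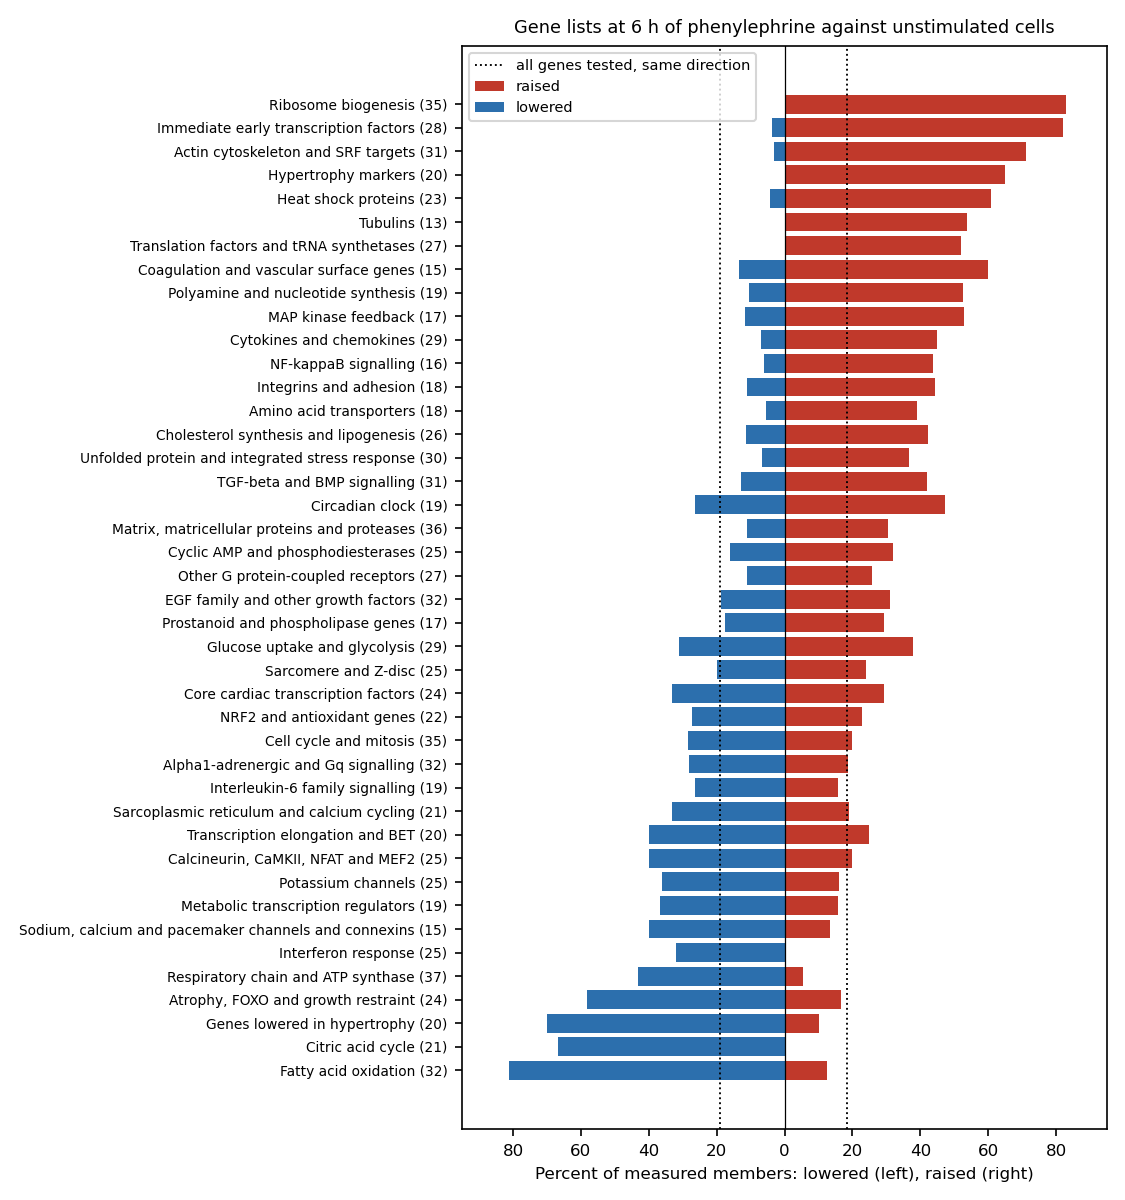
Percent of the measured members of each of 42 pathway lists that were lowered (bars to the left) and raised (bars to the right) at 6 h of PE, with the number of measured members in brackets and dotted lines at the shares of all genes, 18.9% lowered and 18.3% raised. Ribosome biogenesis, immediate early factors and SRF targets are at the top, and fatty acid oxidation and the citric acid cycle are at the bottom.

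Fatty acid oxidation genes fell: 26 of 32 fell and 4 rose (median -0.30, with 2 raised without replicate 2 of the PE arrays). Among those that fell were the carnitine palmitoyltransferases, which bring fatty acids into mitochondria. Cpt1a read 9.46 and 9.72 with PE, against 10.47, 10.47 and 10.53 without (-0.90 ± 0.075), Cpt1b read 9.36 and 9.53, against 10.35, 10.06 and 10.20 (-0.76 ± 0.082), and Cpt2 changed by -0.67 ± 0.049. A dimmer Cpt1a probe set gave -0.26 without passing. The long-chain acyl-CoA synthetase genes split, with Acsl1 down (-0.70 ± 0.058) and Acsl4 (0.48 ± 0.068) and Acsl5 (0.47 ± 0.049) up. Pdk4, a kinase that blocks pyruvate entry into the citric acid cycle, fell by 1.06 on the log2 scale, and its relative Pdk2 read 9.13 and 9.19, against 10.25, 10.30 and 10.33 (-1.13 ± 0.049). In the citric acid cycle list, which includes Pdk2, 14 of 21 fell and 0 rose (median -0.15), or 9 fell when the 5 arrays were fitted alone. Idh2 (-0.27 ± 0.041) and Sucla2 (-0.27 ± 0.036) fell too.

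Respiratory chain genes moved by small amounts: 16 of 37 fell and 2 rose (median -0.078). The number that fell was 10 without replicate 1 and 9 without replicate 2 of the PE arrays, and 5 when the 5 arrays were fitted alone. Ndufs1 of complex I (-0.26 ± 0.038) and Sdha of complex II (-0.25 ± 0.039) were among them, while Cox7a1 (0.38 ± 0.071) and Cox5a (0.38 ± 0.088) of complex IV rose. Among 19 metabolic transcription regulators 3 rose and 7 fell (4 fell without replicate 1 of the PE arrays and 4 in the fit of 5 arrays). With Ppargc1a fell the retinoid receptor gene Rxrg (-1.06 ± 0.086) and Klf15 (-0.57 ± 0.074), whereas Perm1, known as a PGC-1-responsive muscle gene, rose (0.79 ± 0.076) and Ppara was dim and did not pass (-0.11 ± 0.17). In glucose uptake and glycolysis 11 of 29 rose and 9 fell (5 fell without replicate 2 of the PE arrays). The hexokinase gene Hk2 (0.99 ± 0.12, dim without PE), the lactate exporter gene Slc16a3 (1.15 ± 0.066) and Eno3 (0.74 ± 0.053) rose, while the phosphofructokinase gene Pfkm (-0.58 ± 0.048) and the glycogen phosphorylase gene Pygb (-0.91 ± 0.059) fell.

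Of 25 potassium channel genes 9 fell and 4 rose (2 with dim genes left out). Beside Kcnj11, its partner Abcc8 (-0.77 ± 0.12), the inward rectifier Kcnj12 (-0.81 ± 0.11) and the accessory subunit Kcne4 (-0.73 ± 0.043) fell, while Kcne1, a partner of the slow delayed rectifier, read 7.43 and 8.01, against 6.502, 6.85 and 6.88 (0.98 ± 0.17). Of 15 sodium, calcium and pacemaker channel and connexin genes 6 fell and 2 rose, with Scn1a (-0.85 ± 0.079), Scn4b (-0.64 ± 0.064) and the L-type calcium channel gene Cacna1c (-0.32 ± 0.059) down. In the sarcoplasmic reticulum and calcium cycling list 7 of 21 fell and 4 rose. The release channel gene Ryr2 (-0.37 ± 0.043), triadin, Trdn (-0.43 ± 0.06), and Dhrs7c (-0.61 ± 0.13) fell, and junctophilin 2, Jph2, rose (0.60 ± 0.06).

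Of 24 core cardiac transcription factor genes, 7 rose (4 in the fit of 5 arrays) and 8 fell. Nkx2-5 read 11.03 and 11.01 in PE cells, against 10.29, 10.46 and 10.57 in unstimulated cells (0.58 ± 0.066), and Gata4 read 10.34 and 10.30, against 9.82, 9.77 and 9.77 (0.53 ± 0.049). The list also counts the HMG-box factor gene Tox among those that fell. Below Irx3, the Iroquois genes Irx4 (-0.77 ± 0.06) and Irx5 (-1.11 ± 0.11) and the homeodomain-only gene Hopx (-0.70 ± 0.067) fell. All 3 Iroquois genes of the list were thus lower with PE.

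Of 32 genes for EGF family and other growth factors and their receptors, 10 rose and 6 fell. The EGF receptor ligands Areg and Hbegf rose with Tgfa (0.65 ± 0.093), and the neurotrophin gene Bdnf read 8.45 and 8.28, against 7.40, 7.45 and 7.41 (0.94 ± 0.059). The neurotrophin gene Ntf3 (-1.04 ± 0.098), Fgf9 (-0.93 ± 0.087) and Vegfc (-0.69 ± 0.049) fell. Of 31 TGF-beta and BMP genes 13 rose and 4 fell. Bmp7 read 9.30 and 9.34 with PE, against 7.51, 7.46 and 7.72 without (1.76 ± 0.062), and the inhibin subunit gene Inha (1.39 ± 0.10), Bmp2 (1.08 ± 0.053), the BMP antagonist gene Grem1 (0.95 ± 0.08) and the BMP target gene Id1 (0.93 ± 0.058) rose. Bmp4 (-0.37 ± 0.05), Bmp6 (-0.37 ± 0.052) and Bmp5 (-0.86 ± 0.12, dim with PE) fell.

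Among 29 cytokine and chemokine genes 13 rose and 2 fell. The interleukin gene Il6 read 8.08 and 8.14, against 6.14, 6.38 and 5.89 (1.97 ± 0.15), and was dim without PE. Cx3cl1 (1.17 ± 0.072), Cxcl16 (1.03 ± 0.056), Cxcl1 (0.60 ± 0.068) and Ccl7 (0.88 ± 0.079) rose, and Cxcl12 (-0.57 ± 0.046) and Cxcl11 (-0.44 ± 0.10) fell. In the interleukin-6 family list 3 of 19 rose (5 with trended robust eBayes), namely Il6, Clcf1 (0.62 ± 0.10, dim in both groups) and Stat3 (0.54 ± 0.068), and 5 fell, with the feedback inhibitor gene Socs2 at -0.98 ± 0.076. Lif was dim and did not pass (-0.024 ± 0.13). Of 16 NF-kappaB genes 7 rose and 1 fell. The inducible cyclooxygenase gene Ptgs2 read 9.35 and 9.33, against 8.41, 8.27 and 7.98 (1.12 ± 0.11), and Nfkbiz rose by 1.05 ± 0.049. Of 17 prostanoid and phospholipase genes 5 rose (3 without replicate 2 of the PE arrays or replicate 1 of the unstimulated arrays) and 3 fell (5 on averaging probe sets). Prostacyclin synthase, Ptgis, which acts downstream of cyclooxygenase, read 12.31 and 12.15, against 10.47, 10.45 and 10.41 (1.78 ± 0.05), and the phospholipase gene Pla2g4a rose by 1.04 ± 0.071.

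Genes of coagulation and the vascular surface rose, 9 of 15 against 2 that fell (median 0.31). Thrombomodulin, Thbd, read 9.81 and 9.88 with PE, against 7.92, 8.13 and 8.07 without (1.80 ± 0.075), with 1.87 for a second probe set and 0.19 for the dimmest, which did not pass. The protease inhibitor genes Serpinb2 (1.40 ± 0.16) and Tfpi2 (1.38 ± 0.16), the urokinase receptor gene Plaur (1.20 ± 0.099) and the plasminogen activator gene Plat (1.07 ± 0.038) rose, and the tissue factor gene F3 fell (-0.56 ± 0.10). Of 36 matrix genes and proteases 11 rose and 4 fell (1 in the fit of 5 arrays, 2 without replicate 1 of the PE arrays and 7 with trended robust eBayes), with Timp1 (1.01 ± 0.05) up and Ccn5 (-0.85 ± 0.11) down. Of 18 integrin and adhesion genes 8 rose and 2 fell, with Itga9 (1.21 ± 0.065) and Itgb3 (1.14 ± 0.063) up.

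Genes of atrophy, FOXO and growth restraint fell: 14 of 24 fell and 4 rose (median -0.31). Below Pik3ip1, the repressor gene Klf11 (-1.22 ± 0.082), the cyclin gene Ccng2 (-1.13 ± 0.054), a FOXO target, and Sesn1 (-1.01 ± 0.084), which restrains mTORC1, fell at least 2-fold. A second Klf11 probe set gave -0.23 without passing. Txnip, an inhibitor of thioredoxin and glucose uptake, read 11.70 and 11.87, against 12.69, 12.59 and 12.65 (-0.86 ± 0.058). The muscle ubiquitin ligase gene Trim63 fell as well (-0.40 ± 0.04). Irs2, an insulin receptor substrate, rose against the list and read 10.77 and 10.83, against 9.30, 9.40 and 9.45 (1.41 ± 0.053).

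Of 19 clock genes 9 rose and 5 fell. Bmal1 read 8.17 and 8.25 with PE, against 7.13, 7.16 and 7.13 without (1.07 ± 0.054), and the repressor gene Nfil3 rose by 1.05 ± 0.078. Per3 (-1.02 ± 0.061), Nr1d2 (-0.98 ± 0.097), Tef (-0.68 ± 0.061) and Dbp (-0.55 ± 0.074) fell, while Per2 (0.56 ± 0.055) rose, and Per1 (0.26 ± 0.068) rose slightly and did not pass without replicate 2 of the PE arrays (adjusted p = 0.104). Since the groups carry labels of 6 h and 90 min, PE and elapsed time cannot be told apart for these genes.

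Of 25 interferon response genes 8 fell and 0 rose, but 3 fell without replicate 1 of the PE arrays, 5 without its replicate 2, 3 without replicate 2 and 4 without replicate 3 of the unstimulated arrays. Mx2 (-0.81 ± 0.25) and Irf1 (-0.55 ± 0.044) were among them. Of 30 unfolded protein and integrated stress response genes 11 rose (6 in the fit of 5 arrays) and 2 fell, with Chac1 (1.05 ± 0.066) and Ppp1r15a (0.88 ± 0.08) up. Of 26 cholesterol and lipid synthesis genes 11 rose (7 without replicate 1 of the PE arrays, in the fit of 5 arrays and on centring the arrays) and 3 fell (1 without replicate 1 of the PE arrays and in the fit of 5 arrays), the largest change being that of Ch25h. Of 35 cell cycle genes 7 rose, 20% of the list, which is close to the 18.3% of all genes (4 without replicate 2 of the PE arrays, without replicate 3 of the unstimulated arrays and in the fit of 5 arrays). Another 10 fell (28.6%, beside 18.9% of all genes), with the kinase gene Plk2 (0.89 ± 0.041) up and the inhibitor genes Cdkn1b (-0.39 ± 0.051) and Cdkn1c (-0.40 ± 0.047) down. Of 22 NRF2 and antioxidant genes 5 rose (22.7%, beside 18.3% of all genes) and 6 fell (27.3%, beside 18.9%). Txnrd1 was up (0.49 ± 0.062), and catalase, Cat (-0.75 ± 0.053), and Hmox1 (-0.68 ± 0.08) were down. Of 20 transcription elongation and BET genes 5 rose (1 without replicate 2 of the PE arrays, 3 in the fit of 5 arrays) and 8 fell (5 on averaging probe sets, in the fit of 5 arrays, and without replicate 1 of the PE arrays or replicate 3 of the unstimulated arrays), with the super elongation complex gene Mllt3 at -1.02 ± 0.085.

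The label of the cells was checked against markers. The 15 measured cardiomyocyte markers, among them Tnnt2, Myl2, Myh6, Ryr2, Nkx2-5 and Gata4, lay between 9.79 and 14.42 in both groups. Their summed level was 17.44 to 17.46 on the PE arrays, against 17.45 to 17.48 on the unstimulated arrays. The median of these markers was 13.83 to 13.89 on the 5 arrays, near the top of the scale, which limits what the sum can show. Of these, 3 rose and 5 fell (1 to 3 on averaging probe sets, in the fit of 5 arrays, and without replicate 1 of either group). Non-myocytes remained: the 16 fibroblast markers lay between 6.58 and 13.9, with a summed level of 16.31 to 16.32, against 16.37 to 16.39. The fibroblast sum, which the brightest markers dominate, was thus slightly lower on both PE arrays than on every unstimulated array. The median level of the same markers overlapped, at 10.87 and 10.88 with PE, against 10.86, 10.93 and 10.84 without. Among the smooth muscle and pericyte markers, the proteoglycan gene Cspg4 read 10.02 and 9.96, against 8.41, 8.28 and 8.38 (1.63 ± 0.077), Mcam rose by 0.88 ± 0.046 and the smooth muscle myosin gene Myh11 fell (-0.37 ± 0.074). Of 14 endothelial markers 8 or 9 lay below the dim limit with PE and 9 without, Pecam1 and Vwf being dim in both groups. Of 15 macrophage and leukocyte markers 7 to 9 were dim with PE and 8 or 9 without, with Ptprc dim in both. Their summed levels were 10.65 to 10.73, against 10.58 to 10.63, for endothelial markers, and 10.91 to 11.02, against 10.89 to 11.0, for leukocyte markers. In these bulk samples fewer cells of a type and less RNA per cell cannot be told apart.

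For some of the genes named above, the arrays with PE for 48 h and with JQ1 and PE for 6 h give further levels. They are set beside those above as descriptions, since the comparisons share arrays, and the labels and the design text differ on whether JQ1 or PE was added first. Nr4a3 averaged 6.61 in unstimulated cells, 9.37 at 6 h of PE and 7.44 at 48 h. Ch25h averaged 5.40 in unstimulated cells, 8.53 at 6 h and 6.13 at 48 h, and Rgs2 averaged 10.18, 12.58 and 10.81 in the same order. At 48 h these 3 genes stood nearer to the unstimulated level than to the 6 h level. Otud1 averaged 10.39 in unstimulated cells, 12.42 at 6 h and 12.26 at 48 h, and Adra1b averaged 11.03, 9.51 and 9.35, so both stood near their 6 h level at 48 h. Ptprr averaged 8.22, 5.16 and 6.73, its 48 h level lying between the others. In cells given JQ1 and PE for 6 h, Il12a averaged 4.66, against 7.74 with PE alone and 5.63 unstimulated, and Ptgis averaged 10.38, against 12.23 and 10.45. Nr4a3 averaged 10.07 with JQ1, against 9.37 with PE alone, and Lrrc10 averaged 6.56, against 8.92. The first pair of genes was near the unstimulated level or below it with JQ1, while Nr4a3 was higher and Lrrc10 lower than with PE alone.

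**Figure D5:**
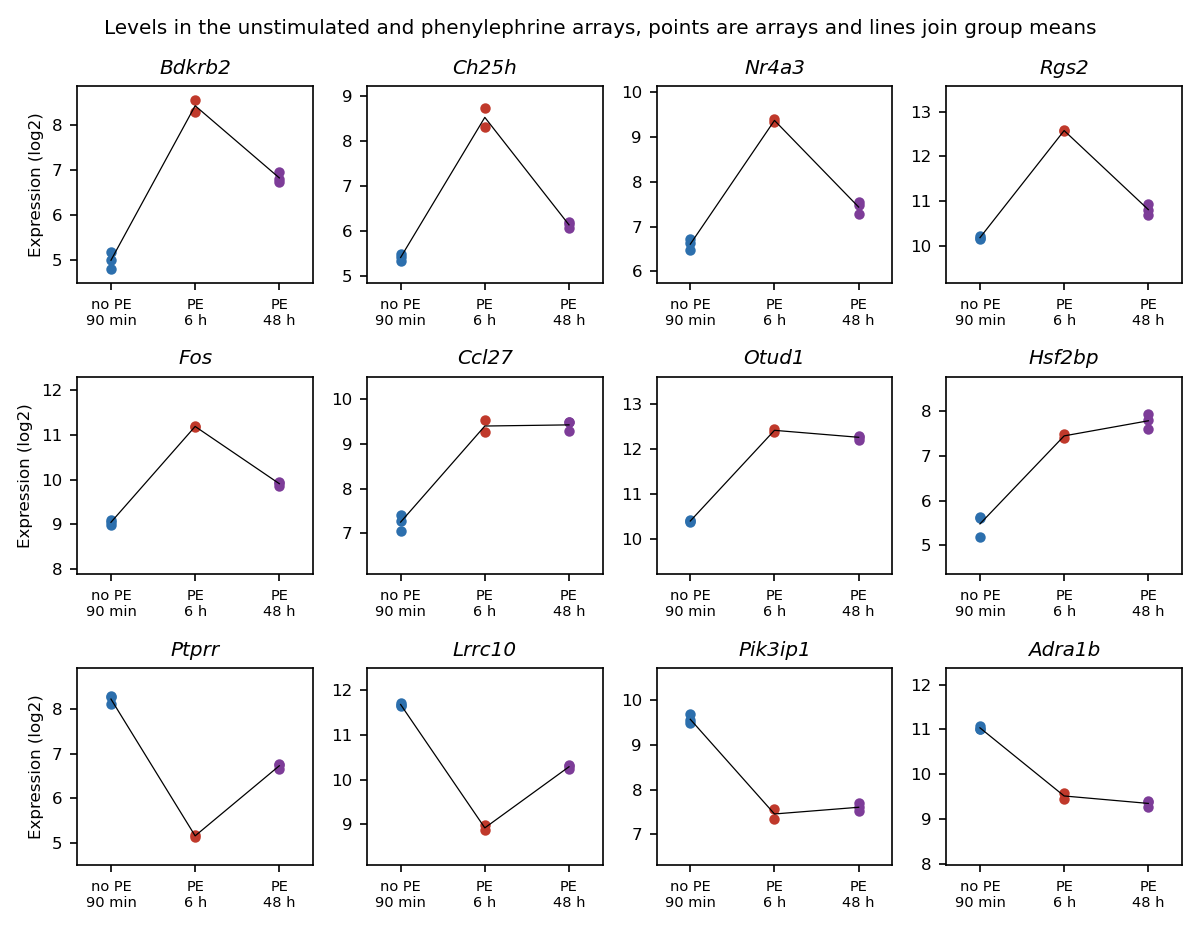
Expression (log2, y axis, each panel spanning the same range) of 12 genes in unstimulated cells at 90 min (n = 3) and after 6 h (n = 2) and 48 h (n = 3) of PE, with a point per array and a line through the group means. Nr4a3, Rgs2 and Ch25h peak at 6 h, while Adra1b and Pik3ip1 stay low at 48 h.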

How the data were processed

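Total RNA of 14 cell samples was measured on Affymetrix rat arrays. The authors deposited a table of log2 expression values for 20223 probe sets, already on 1 scale across arrays (array medians 7.28 to 7.43). How they normalized it is not given in the sources used here, and the submitters' processing notes name limma without a role. The platform annotation gave 1 gene symbol to 18510 probe sets, several to 305 and none to 1402. Symbols were updated by gene ID for 18461, and the brightest probe set stood for each of 13184 genes. Samples were grouped by title. One model with 5 group means was fitted to all arrays with limma 3.58.1 in R 4.3.3 (9 residual degrees of freedom, empirical Bayes), with Benjamini-Hochberg adjustment over all genes and a threshold of 0.05. The code was tested on simulated data. Arrays agreed within groups (Pearson's r across genes 0.998 for PE 6 h and 0.9986 to 0.9989 for unstimulated cells). No counts underlie these values, and the number of arrays limits their precision.

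The comparison, the 42 pathway lists and the 9 marker lists were chosen with earlier results of these data known. Genes named were the 20 largest rises and 20 largest falls among called genes whose arrays do not overlap, up to 6 called members of a list in its majority direction and up to 3 in the other by smallest adjusted p, and a set panel of 33, of which Fosb was not analysed here. Alternatives were repeated quantile normalization, centring, the mean of probe sets, leaving out dim genes, a fit of the 5 compared arrays, trended robust eBayes, a replicate block and leaving out each array.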

Additional observations from a re-analysis of the deposited data

How the results depend on the processing

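Under each alternative tried the raised and lowered counts stayed within 1.5 times the reported 2416 and 2492 genes, as did the count raised at least 2-fold (133). The exception was the count lowered at least 2-fold, 46 with the mean of probe sets, against 70. Leaving out 1 array at a time gave 2003 to 2227 raised genes, 1759 to 2334 lowered, 127 to 143 raised at least 2-fold and 58 to 89 lowered at least 2-fold. Among 380 named genes, Ppard (0.014) and Tln2 (0.089) turned to a positive change with the mean of probe sets, and the cause was not tested. In all, 67 named genes lost their call under at least 1 alternative, while the 20 largest rises and 20 largest falls kept theirs wherever they were tested. Those largest rises and falls were picked by size and call from these same arrays, so keeping their call was largely built in. Of 183 further probe sets of the called named genes, 85 passed in the same direction and 73 had the same sign without passing. Another 24 had the opposite sign without passing and 1 passed in the opposite direction. The mean of probe sets brought Bdkrb2 to 1.88, Pik3ip1 to -1.09 and Kcnj11 to -0.75. Replicate numbers are not stated to pair the samples: deviations of same-numbered arrays correlated at -0.0484 and 0.18. With only 2 PE arrays their deviations mirror each other, so these values cannot show pairing or its absence. The largest in size, for unstimulated replicate 3, was 0.207 with PE replicate 1 and -0.207 with PE replicate 2. With the replicate number as a block, 2234 genes rose and 2320 fell, with 132 and 69 at least 2-fold. Only 2 PE arrays, and dim signals for genes below the dim limit, bound the precision.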

Other observations

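Of 14 endothelial markers 2 rose and 1 fell, with the VEGF receptor gene Kdr at -0.64 ± 0.13 and Egfl7 at 0.33 ± 0.048. Of 15 macrophage and leukocyte markers 2 rose and 2 fell (13.3% each, below the shares of all genes). The macrophage growth factor receptor gene Csf1r read 6.10 and 6.66 in PE cells, against 5.33, 5.44 and 5.51 in unstimulated cells (0.95 ± 0.13, dim without PE), and Cd74 changed by -0.36 ± 0.12. Of 7 epicardial and mesothelial markers 2 rose and 0 fell, with Upk1b at 0.56 ± 0.083, and of 7 Schwann and neural markers 1 rose, Dbh (0.38 ± 0.12). Of 16 fibroblast markers 3 rose (0 in the fit of 5 arrays, 1 without replicate 1 of either group) and 3 fell (6 with trended robust eBayes), among them Thy1 (0.31 ± 0.093) and Vim (-0.23 ± 0.035). Of 9 lymphocyte and 7 erythroid markers 0 passed in limma's test, with 2 and 1 of them at an unadjusted p under 0.05. These counts are to be read beside the 5825 of all 13184 genes below that unadjusted threshold in the same test. Of the same markers, 8 lymphocyte and 5 erythroid ones were dim in both groups.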
